A study of Bos taurus with 30 samples.

Results

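Keratins and vimentin, the intermediate filament proteins by which epithelial and stromal cells are commonly told apart, were followed in all 30 libraries of bovine endometrial cells. The 8 genes were the rows of both count tables that carry the symbols KRT5 (ENSBTAG00000038384), KRT7 (ENSBTAG00000016165), KRT8 (ENSBTAG00000000836), KRT17 (ENSBTAG00000006806), KRT18 (ENSBTAG00000001517), KRT19 (ENSBTAG00000004905), KRT80 (ENSBTAG00000007204) and VIM (ENSBTAG00000018463). They were 8 of the 27607 genes in the tables, of which 17468 had a row that pairs the identifier with a symbol. The question was how far each library carried the filament genes of its own cell type and those of the other cell type, and whether this differed between the treatments.

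Keratins build the filaments of epithelial cells as obligate pairs of an acidic type I chain (KRT17, KRT18 and KRT19 here) and a basic type II chain (KRT5, KRT7, KRT8 and KRT80 here). KRT8 and KRT18 are the primary pair of simple epithelia such as the uterine lining, and KRT7 and KRT19 join them in simple and ductal epithelia. KRT5 belongs to basal cells of stratified epithelia, KRT17 to basal and activated epithelium, and KRT80 is a late type II keratin linked to desmosomes and the cell cortex. Vimentin, a type III protein, forms the filaments of fibroblasts and other mesenchymal cells, and many epithelial cells also make it in culture.

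The cells were primary cells from uteri of nonpregnant cows early in the luteal phase, enriched as epithelial or stromal cells by filtering the digested endometrium and by their plating times, so that each population was enriched and not clonal. The study itself checked these populations by staining the epithelial cells for keratin 18 and the stromal cells for vimentin. Epithelial cells grew in the upper chamber and stromal cells in the lower chamber of a flow device with a porous membrane between them, and the cells of each chamber were lifted with trypsin after 3 days of flow. In the glucose experiment the medium held 5 mM or 50 mM glucose. In the insulin experiment the medium held 5 mM glucose with the vehicle (acetic acid in PBS), 1 ng/mL insulin or 10 ng/mL insulin. Each of the 10 groups (2 cell types by 5 conditions) had 3 replicates. The labels do not say whether a replicate number marks the same animal, so the p-values measure the spread between these samples.

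Levels are given as CPM, the count of a gene scaled to all counted reads of its library. Counted reads per library numbered 13493503 to 16647701 in the glucose and 8826470 to 13214728 in the insulin experiment, and a count of 0 allows up to 3 counts, or 0.180 to 0.222 CPM and 0.227 to 0.340 CPM, respectively, for counting error only. One library stood apart. Replicate 3 of the stromal cells at 50 mM glucose held 2649 CPM on the 15 epithelial markers used here as a reference (EPCAM, CDH1, CLDN4 and others), against 18.4 to 641 CPM in the other 5 stromal glucose libraries and 3006 to 4274 CPM in the epithelial ones. Its keratin reads outnumbered its vimentin reads, with a log2 ratio of 0.72, whereas the other stromal libraries lay between -7.63 and -1.63 and all epithelial libraries between 2.43 and 3.59. Its 15 stromal markers summed to 22200 CPM, between the 59906 to 80823 CPM of the other stromal glucose libraries and the 1524 to 6425 CPM of the epithelial ones. Whether cells of both chambers were mixed in it, or its label is wrong, was not tested. The levels below name this library. The order of the members' group means and the correlations with KRT18 are also given without it. Most edgeR results of the members are also given without replicate 3. DESeq2 results and gene list results at 50 mM glucose are given with it only.

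KRT8 and KRT18 form the filament pair of simple epithelium. Relative to epithelial cells, they stood above KRT7, KRT19 and the median of the epithelial markers in some stromal glucose libraries. KRT80 stood higher still in these libraries. In epithelial cells at 5 mM glucose, KRT18 had 695, 1788 and 444 CPM in replicates 1, 2 and 3, and at 50 mM it had 661, 859 and 473 CPM. In stromal cells it had 47.4, 176 and 57.3 CPM at 5 mM and 99.5, 334 and 336 CPM at 50 mM. Every stromal glucose library thus held many KRT18 reads, the lowest being 727 in replicate 1 at 5 mM. In the insulin experiment the stromal levels of KRT18 were 0.787, 34.4 and 0 CPM with vehicle, 0.556, 0.254 and 0.242 CPM at 1 ng/mL, and 16.1, 0.0877 and 1.25 CPM at 10 ng/mL, beside 440 to 965 CPM in the 9 epithelial libraries. Most stromal insulin libraries were therefore at or close to the limit that a count of 0 allows, and none of the stromal glucose libraries was.

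**Figure D1:**
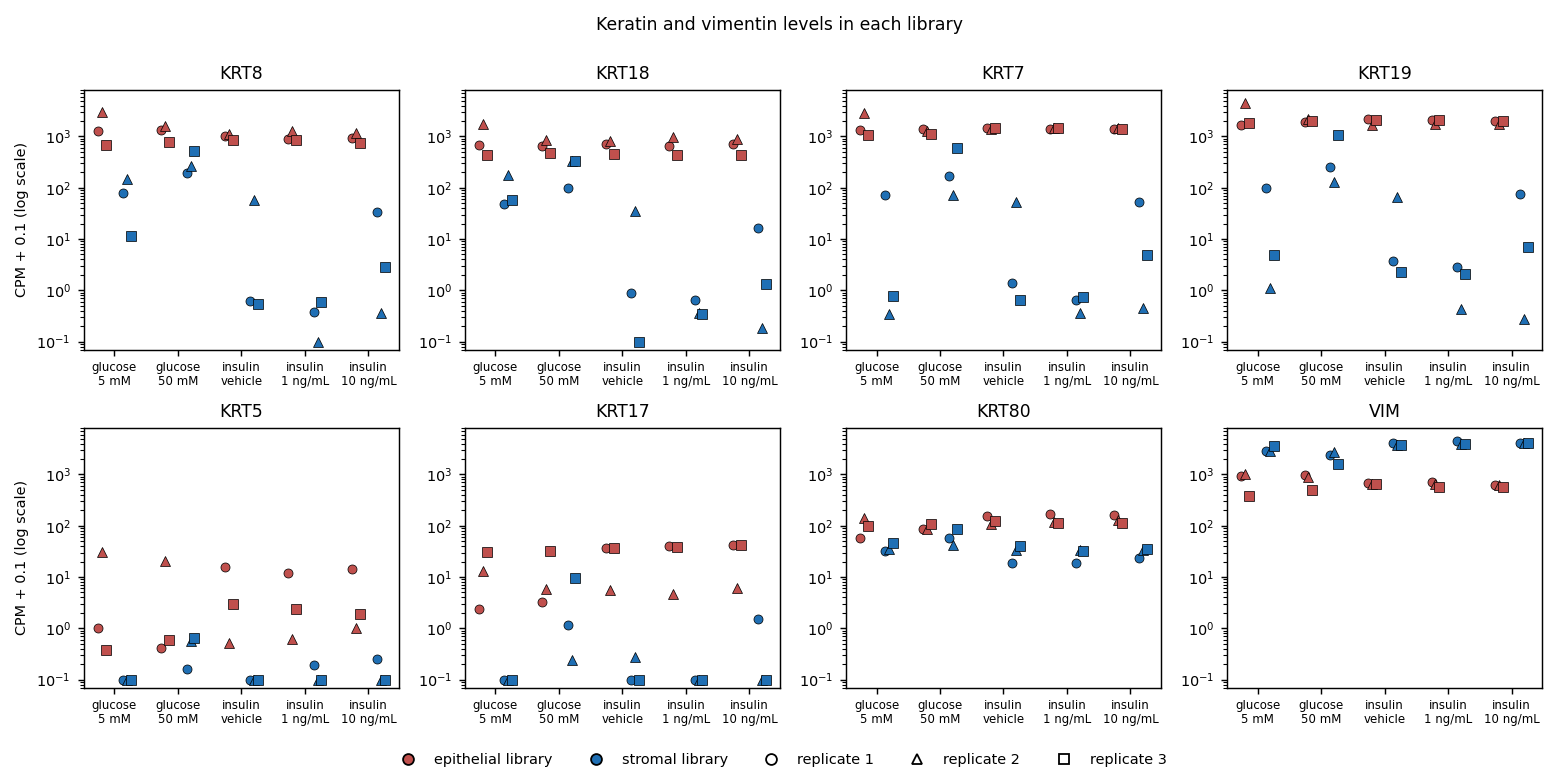
CPM plus 0.1 (log scale) of each gene in the 30 libraries, by condition, with epithelial libraries in red, stromal libraries in blue and a symbol for each replicate number. KRT18 stays between 47.4 and 336 CPM in the stromal glucose libraries while KRT7 and KRT19 fall to about 1 CPM and below in some of them, and VIM is above 385 CPM in every library.

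KRT8, the type II partner of KRT18, had 1273, 2985 and 672 CPM in epithelial cells at 5 mM and 1337, 1632 and 778 CPM at 50 mM. In stromal cells it had 77.3, 146 and 11.6 CPM at 5 mM and 192, 267 and 510 CPM at 50 mM. The stromal insulin libraries held 0 to 57.8 CPM of KRT8 and the epithelial ones 756 to 1284 CPM. The ranges of the cell types did not meet in either experiment for KRT8 or KRT18.

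KRT7 and KRT19, the other keratins of simple epithelia, behaved differently in the same stromal libraries. KRT19 had 1681, 4418 and 1844 CPM in epithelial cells at 5 mM and 1940, 2170 and 2026 CPM at 50 mM. In stromal cells at 5 mM it had 98.6, 1.01 and 4.70 CPM, from 1513, 16 and 77 reads. At 50 mM it had 249.9, 128 and 1076 CPM. KRT7 had 1359, 2828 and 1081 CPM in epithelial cells at 5 mM and 1379, 1280 and 1127 CPM at 50 mM. In stromal cells it had 71.9, 0.251 and 0.671 CPM at 5 mM and 172, 73.6 and 597 CPM at 50 mM. Replicates 2 and 3 at 5 mM were thus nearly without KRT7 (4 and 11 reads) while they held 2802 and 940 reads of KRT18.

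The ratio of KRT18 to KRT19 reads within a library shows the same split. The log2 ratio was between -2.10 and -1.27 in the 6 epithelial glucose libraries and between -2.23 and -0.89 in the 9 epithelial insulin libraries. Stromal replicates 1, 2 and 3 had -1.06, 7.45 and 3.61 at 5 mM and -1.33, 1.38 and -1.68 at 50 mM. The stromal insulin libraries with at least 10 reads of both genes had -0.93 (vehicle, replicate 2), -2.22 and -2.45 (10 ng/mL, replicates 1 and 3). Stromal replicate 2 at both glucose concentrations and replicate 3 at 5 mM therefore lay above the range of the epithelial libraries. The log2 ratio of KRT8 to KRT18 was between 0.37 and 1.02 in all 15 epithelial libraries, and these same 3 stromal libraries were below it, with -0.27 and -2.31 at 5 mM and -0.32 at 50 mM. In those libraries KRT18 was in excess of KRT8, relative to epithelial cells. KRT7 and KRT19 kept closer to each other, with a log2 ratio from -0.85 to -0.25 over the epithelial libraries and from -2.81 to -0.46 over the 5 stromal glucose libraries with 10 or more reads of each.

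**Figure D2:**
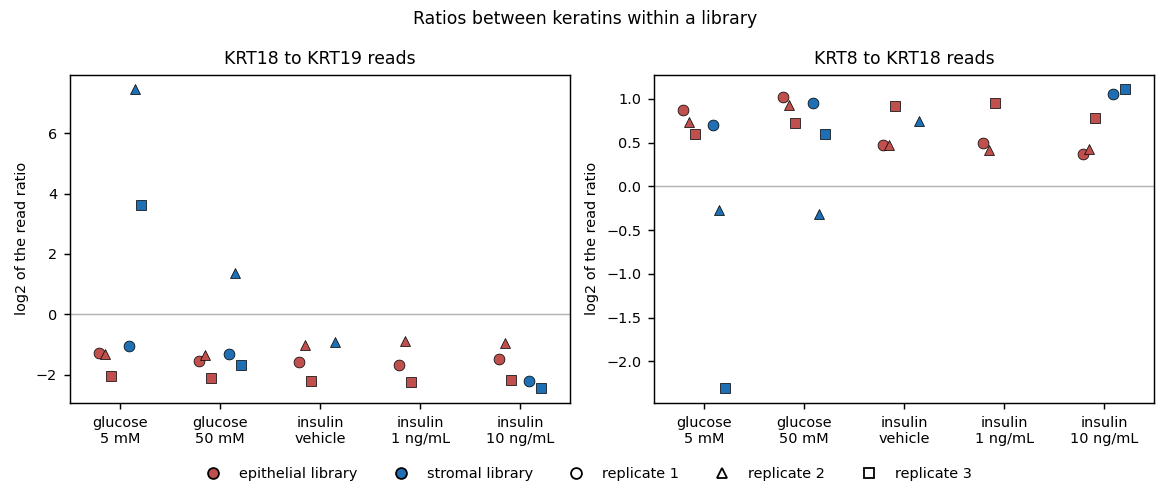
Log2 of the ratio of reads on a pair of keratins within a library, by condition, for libraries with at least 10 reads of both genes, with epithelial libraries in red, stromal libraries in blue and a symbol for each replicate number. In KRT18 to KRT19 the stromal glucose libraries reach 7.45 and in KRT8 to KRT18 they go down to -2.31, outside the range of the epithelial libraries.

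To set the stromal keratins beside the amount of epithelial RNA, each level was expressed as a percentage of the level in the epithelial library of the same replicate number and condition, next to the median of that percentage over the 15 epithelial markers. At 5 mM glucose, KRT18 stood at 6.82%, 9.85% and 12.9% in stromal replicates 1, 2 and 3, KRT8 at 6.07%, 4.90% and 1.72%, KRT7 at 5.29%, 0.00889% and 0.0621%, and the marker median at 9.32%, 0% and 0.0705%. At 50 mM, KRT18 stood at 15.1%, 38.9% and 71.0%, KRT8 at 14.4%, 16.4% and 65.5%, KRT7 at 12.5%, 5.75% and 53.0%, and the marker median at 17.1%, 6.06% and 63.8%. In replicate 1 at both concentrations, KRT7, KRT8, KRT18 and KRT19 were below the marker median, and in replicate 3 at 50 mM they were within a narrow range around it. In replicate 2 at both concentrations and replicate 3 at 5 mM, KRT18 and KRT8 were above the marker median and KRT7 and KRT19 were much nearer to it. In replicate 2 at 50 mM, the marker median corresponded to 52.1 CPM of KRT18, and the measured level was 6.41 times that.

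In the stromal insulin libraries the 4 keratins and the markers had similar percentages. Replicate 2 with vehicle had a marker median of 3.35% with keratins from 3.77% (KRT7) to 5.08% (KRT8). Replicate 1 at 10 ng/mL had a marker median of 4.05% with keratins from 2.22% (KRT18) to 3.69% (KRT7 and KRT19). In the other 7 libraries the marker median was at most 0.367% and no value of KRT7, KRT8, KRT18 or KRT19 was above 0.356%. In bulk RNA, fewer cells of a type and less RNA per cell cannot be told apart, so these percentages are shares of RNA and not of cells. The markers at 0 reads numbered 8 of 15 in stromal replicate 2 at 5 mM and 2 of 15 in replicate 3, and 1 marker, MARVELD2, had 14.2 to 60.5 CPM in the stromal libraries throughout.

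**Figure D3:**
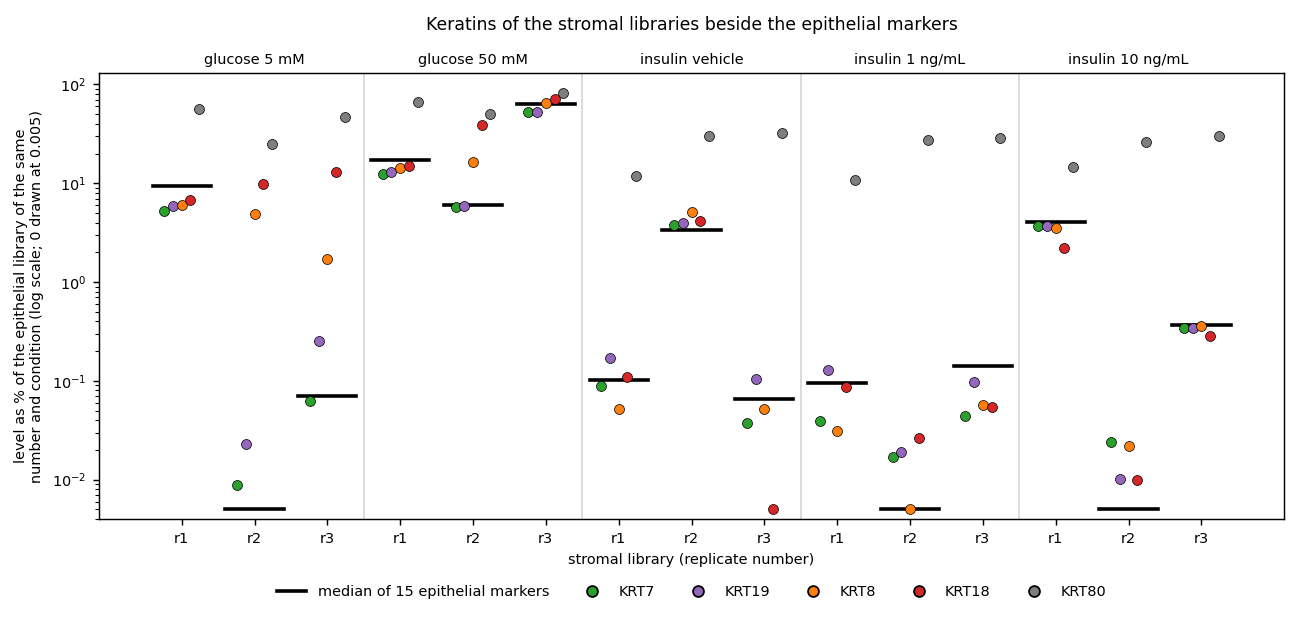
Level of KRT7, KRT19, KRT8, KRT18 and KRT80 in each stromal library as a percentage of the epithelial library of the same replicate number and condition (log scale, 0 drawn at 0.005), with a black bar for the median percentage of 15 epithelial markers. KRT80 lies above the bar in all 15 libraries, and KRT18 lies far above it in replicates 2 and 3 at 5 mM (9.85% and 12.9%) and replicate 2 at 50 mM (38.9%).

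Smooth muscle cells and myofibroblasts are also known to make KRT8 and KRT18, and 8 smooth muscle markers (MYH11, DES, CNN1, ACTA2 and others) were read in the same libraries. Their summed level in stromal replicates 1, 2 and 3 was 2744, 8464 and 3881 CPM at 5 mM and 3305, 8974 and 1506 CPM at 50 mM. Replicate 2 was the highest at both concentrations, and its DES, the muscle intermediate filament gene, had 2473 CPM at 5 mM and 2545 CPM at 50 mM. Replicate 3 at 5 mM, where KRT18 was 183 times the level that the marker median corresponds to, held 3881 CPM, within the range of the insulin libraries. The stromal insulin libraries, where KRT18 was between 0 and 34.4 CPM, summed to 3567 to 5581 CPM, which lies within the range of the glucose libraries, with 102 to 658 CPM of DES. Their part in the KRT18 level was not tested.

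By the likeness of their levels over the 15 stromal libraries (Pearson correlation of log2(CPM + 1), 10083 protein-coding genes), KRT8 was the gene most like KRT18, with r = 0.97, followed by IGSF9 (0.955), NRG1 (0.939), RPS6KA1 (0.939) and MARCKSL1 (0.939). KRT19 took place 783 (r = 0.735), KRT7 place 999 (r = 0.703), and CDH1 place 744 (r = 0.741), and VIM was at r = -0.79. The 7 smooth muscle markers compared were not alike, with r of 0.779 for DES (place 480), 0.726 for SMTN, 0.543 for CNN1, 0.145 for LMOD1, 0.0531 for ACTG2, -0.50 for ACTA2 and -0.66 for SYNPO2. Without the library that stood apart (14 libraries), KRT8 was again first (r = 0.965) and IGSF9 second (0.958), while KRT19 had r = 0.673, KRT7 0.633, CDH1 0.683, DES 0.830 and VIM -0.81. The 15 libraries share 2 experiments, and the 4 genes after KRT8 were all higher in the 6 stromal glucose libraries than in the 9 insulin ones (MARCKSL1, for example, had 16.3 to 27.6 CPM against 1.41 to 4.62 CPM), so these coefficients describe that difference as well. In the cow annotation of RefSeq (ARS-UCD2.0), no protein-coding gene lay between KRT8 and KRT18, nor between KRT7 and KRT80, while 3 lay between KRT17 and KRT19 and 14 between KRT5 and KRT8.

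KRT80 was the keratin that both cell types expressed. It had 57.4, 143 and 98.3 CPM in epithelial cells at 5 mM and 87.4, 84.5 and 105.7 CPM at 50 mM, and 109 to 170 CPM in the insulin experiment. In stromal cells it had 32.1, 35.6 and 46.2 CPM at 5 mM, 57.5, 42.6 and 85.7 CPM at 50 mM, and 18.3 to 40.1 CPM in the insulin experiment. The cell types overlapped in the glucose experiment, but not in the insulin experiment. Its stromal level was 10.8% to 32.2% of the epithelial one in the insulin experiment and 24.9% to 81.1% in the glucose experiment, which was above the median of the epithelial markers in 15 of 15 libraries.

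KRT5 and KRT17, the keratins of basal and activated epithelium, were low and differed between replicates of the epithelial cells more than any other member. KRT5 had 0.931, 31.2 and 0.274 CPM at 5 mM and 0.306, 20.1 and 0.491 CPM at 50 mM, so that replicate 2 was high at both concentrations. With vehicle or insulin, replicate 1 was the high one, with 12.0 to 15.8 CPM, and replicates 2 and 3 had 0.413 to 0.906 CPM and 1.78 to 2.81 CPM. KRT17 had 2.33, 12.8 and 30.1 CPM at 5 mM and 3.12, 5.65 and 32.1 CPM at 50 mM, with replicate 3 as the high one. With vehicle or insulin, replicates 1 and 3 had 37.2 to 42.9 CPM of KRT17 and replicate 2 had 4.48 to 6.12 CPM. The high replicates of KRT5 and KRT17 thus differed in the glucose experiment, while replicate 1 of the insulin experiment was high in both genes. Both genes had 0 reads in the 3 stromal libraries at 5 mM. At 50 mM the stromal libraries held 17, 2 and 138 reads of KRT17, or 1.06, 0.136 and 9.53 CPM, and 0.0626, 0.478 and 0.552 CPM of KRT5. Replicate 3 at 50 mM had more KRT5 than its epithelial counterpart (0.491 CPM), though both came from few reads.

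The replicate number accounted for most of the variation of most epithelial keratins. Of the variance of log2(CPM + 1) over the 9 epithelial insulin libraries, 99.2% lay between replicate numbers for KRT17, 98.4% for KRT5, 96.8% for KRT18, 91.1% for KRT8, 90.7% for KRT19 and 87.8% for KRT80. For these 6 genes at most 3.01% lay between insulin concentrations. KRT7 was the steadiest keratin, with 1388 to 1493 CPM over the 9 libraries. Of its variance, 11.6% lay between replicate numbers and 16.4% between insulin concentrations. For VIM these shares were 46.2% and 33.4%. In the 6 epithelial glucose libraries, the share between replicate numbers ran from 48.8% (KRT7) to 98.4% (KRT5), and VIM had 95.7%.

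Vimentin RNA was abundant in both cell types. In stromal cells VIM had 2869, 2833 and 3535 CPM at 5 mM, 2386, 2766 and 1591 CPM at 50 mM, and 3789 to 4449 CPM in the insulin experiment. In epithelial cells it had 943, 1015 and 385 CPM at 5 mM, 970, 890 and 489 CPM at 50 mM, and 573 to 702 CPM in the insulin experiment. The ranges of the cell types did not meet, with 1591 CPM in the lowest stromal library (replicate 3 at 50 mM) and 1015 CPM in the highest epithelial one.

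As a percentage of the stromal library of the same number and condition, epithelial VIM was 32.9%, 35.8% and 10.9% at 5 mM and 40.7%, 32.2% and 30.7% at 50 mM. The median of the same percentage over 15 stromal markers (collagens, DCN, LUM, PDGFRA and others) was 10.5%, 2.99% and 3.22% at 5 mM and 10.3%, 11.7% and 11.2% at 50 mM. Epithelial VIM had 16.8%, 17.3% and 17.1% with vehicle, 15.8%, 16.9% and 14.6% at 1 ng/mL and 15.1%, 15.5% and 14.4% at 10 ng/mL. The marker median there was 4.36%, 0.993% and 11.4% with vehicle, 3.17%, 1.09% and 9.90% at 1 ng/mL and 3.67%, 1.21% and 9.31% at 10 ng/mL. VIM was above the median of the stromal markers in 15 of 15 epithelial libraries, which does not place it above each single marker. In the 9 insulin libraries VIM stayed between 14.4% and 17.3% while the marker median ran from 0.993% to 11.4% between replicates. COL1A1, the fibril collagen gene, ran from 88.6 CPM (replicate 2 with vehicle) to 847 CPM (replicate 3 with vehicle).

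**Figure D4:**
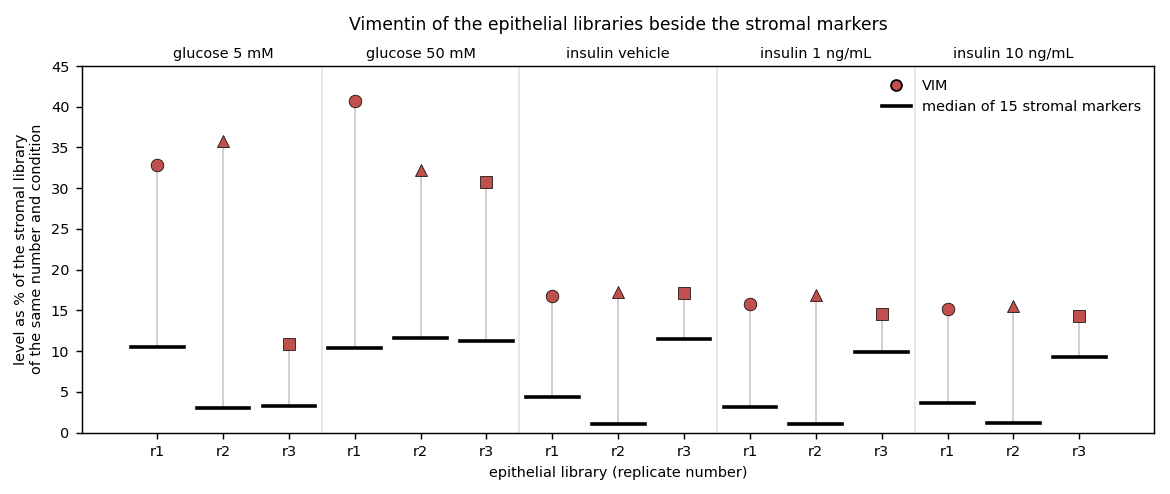
Level of VIM in each epithelial library as a percentage of the stromal library of the same replicate number and condition (red), with a black bar for the median percentage of 15 stromal markers. VIM is above the bar in all 15 libraries and lies between 14.4% and 17.3% in the 9 insulin libraries, where the bar moves between 0.993% and 11.4%.

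Over the 15 epithelial libraries, the genes whose levels were most like those of VIM (Pearson correlation of log2(CPM + 1), 10266 protein-coding genes) were TBCB (r = 0.943), a tubulin folding cofactor, CELF2 (0.934), an RNA-binding splicing regulator, AKR1B1 (0.918), an aldose reductase, SERPINB8 (0.898) and DKK3 (0.896). KRT8 took place 43 (r = 0.819) and KRT18 place 294 (r = 0.652). COL1A1 took place 1116 (r = 0.439), CDH1 had r = -0.67 and KRT17 r = -0.60. The points share replicate numbers and 2 experiments.

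The order of the group means was alike for the keratins of simple epithelia. For KRT7, KRT8 and KRT19 the 5 epithelial groups came first, stromal cells at 50 mM glucose came next with 281 ± 278 CPM, 323 ± 166 CPM and 485 ± 516 CPM (SD, n = 3), and stromal cells at 5 mM followed with 24.3 ± 41.2 CPM, 78.4 ± 67.3 CPM and 34.8 ± 55.3 CPM (SD, n = 3). The stromal 50 mM group met neither of its neighbours in that order, and below it each stromal group overlapped the next one. For KRT7 the gap was narrow, with 73.6 CPM in the lowest stromal library at 50 mM and 71.9 CPM in the highest at 5 mM. Without the library that stood apart, the stromal 50 mM means were 122.7, 230 and 189 CPM for KRT7, KRT8 and KRT19 (n = 2), in the same place of the order and again apart from both neighbours. For KRT18 the stromal means were 256 ± 136 CPM at 50 mM and 93.6 ± 71.7 CPM at 5 mM (SD, n = 3), which overlapped (also without that library, at 217 CPM for n = 2 at 50 mM), and the insulin groups below them did not reach the 5 mM group. For VIM the 3 stromal insulin groups came first (3915 to 4102 CPM) and overlapped. Stromal cells at 5 mM (3079 ± 396 CPM) and 50 mM (2248 ± 600 CPM, SD, n = 3) followed, each apart from its neighbours, and so they were without that library (2576 CPM for n = 2 at 50 mM). Of the epithelial groups, with means from 783 to 606 CPM, each overlapped the next one. For KRT5, KRT17 and KRT80 every neighbouring pair of groups overlapped when all libraries were used. Without the library that stood apart, the stromal 50 mM group (n = 2) lay apart from the epithelial group above it for each of these genes. It still overlapped the stromal group below it. For KRT80 its highest library then had 57.5 CPM, against 84.5 CPM in the lowest epithelial library at 50 mM. The share of all genes with groups apart in this way was not counted, so these ranges only describe the members. The glucose and insulin groups come from separate experiments, so the treatment and the experiment cannot be told apart in this order.

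Epithelial and stromal cells were then compared within each condition with edgeR's quasi-likelihood test, with the replicate number as a block and Benjamini-Hochberg adjustment over all genes tested. A gene was called at an adjusted p under 0.05 and a log2 fold change beyond 0.1. KRT5 had too few reads for this test. In the insulin experiment 7 of the 7 members tested were called in each condition, 6 keratins higher in epithelial cells and VIM lower, beside 55.9% (vehicle), 59.4% (1 ng/mL) and 54.9% (10 ng/mL) of all protein-coding genes. Of all genes, 28.2%, 29.9% and 27.3% were called higher and 27.8%, 29.5% and 27.6% lower in epithelial cells. At 5 mM glucose 6 of 7 were called, 5 keratins higher and VIM lower, beside 21.5% of all genes (10.8% higher and 10.7% lower). At 50 mM glucose 2 of 7 were called, KRT8 higher and VIM lower in epithelial cells, beside 17.6% of all genes (6.57% higher and 11.0% lower).

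At 5 mM glucose the log2 fold change of epithelial over stromal cells was 9.59 for KRT7 (standard error 2.33, edgeR adjusted p = 0.0347), 8.14 for KRT19 (1.94, adjusted p = 0.0324), 4.52 for KRT8 (0.527, adjusted p = 0.00559) and 3.17 for KRT18 (0.384, adjusted p = 0.00583). KRT8 and KRT18 thus had the smaller difference and the smaller error. KRT80 had 1.09 (0.382, adjusted p = 0.104) and was not called, and VIM had -2.30 (0.515, adjusted p = 0.0266). KRT17, with no stromal read, was at least 238-fold higher in epithelial cells, and KRT5 at least 162-fold, both against a floor of 3 counts over the group.

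At 50 mM glucose the log2 fold changes were 2.55 for KRT7 (0.653, edgeR adjusted p = 0.0533), 2.51 for KRT19 (0.647, adjusted p = 0.0535), 1.88 for KRT8 (0.466, adjusted p = 0.0497) and 1.37 for KRT18 (0.411, adjusted p = 0.0748). KRT17 had 2.21 (0.635, adjusted p = 0.0684), KRT80 had 0.48 (0.187, adjusted p = 0.134) and VIM had -1.70 (0.192, adjusted p = 0.00579). All were nearer to 0 than at 5 mM. Without replicate 3, and with it the stromal library that stood apart, 5 members were called, beside 28.4% of all genes, and the log2 fold changes were 3.38 for KRT7, 3.33 for KRT19, 2.52 for KRT8, 1.86 for KRT18, 2.69 for KRT17, 0.61 for KRT80 and -1.65 for VIM. DESeq2 on all libraries called 6, beside 26.0% of all genes.

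With the insulin vehicle the log2 fold changes were 8.47 for KRT7 (1.73, edgeR adjusted p = 0.0138), 8.20 for KRT8 (1.83, adjusted p = 0.0180), 7.94 for KRT19 (1.45, adjusted p = 0.0100) and 7.78 for KRT18 (1.63, adjusted p = 0.0149). At 1 ng/mL, where the median of the epithelial markers was at most 0.141% in the stromal libraries, they were 11.41 for KRT7 (0.291), 11.75 for KRT8 (0.534), 10.18 for KRT19 (0.519) and 10.78 for KRT18 (0.293), with edgeR adjusted p of 1.00e-04 or less, from sums of 17, 9, 58 and 12 stromal reads. At 10 ng/mL they were 7.69, 7.60, 7.81 and 7.86. KRT8 and KRT18 thus did not stand apart from KRT7 and KRT19 in these conditions. KRT80 had 2.04, 2.16 and 2.04 with vehicle, 1 ng/mL and 10 ng/mL (standard errors 0.374, 0.319 and 0.281), and VIM had -2.63, -2.78 and -2.84 (0.147, 0.154 and 0.148). KRT17 had 2, 0 and 19 stromal reads in these conditions and was at least 311-fold higher in epithelial cells at 1 ng/mL. KRT5 was at least 75.1-fold higher in epithelial cells with vehicle.

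**Figure D5:**
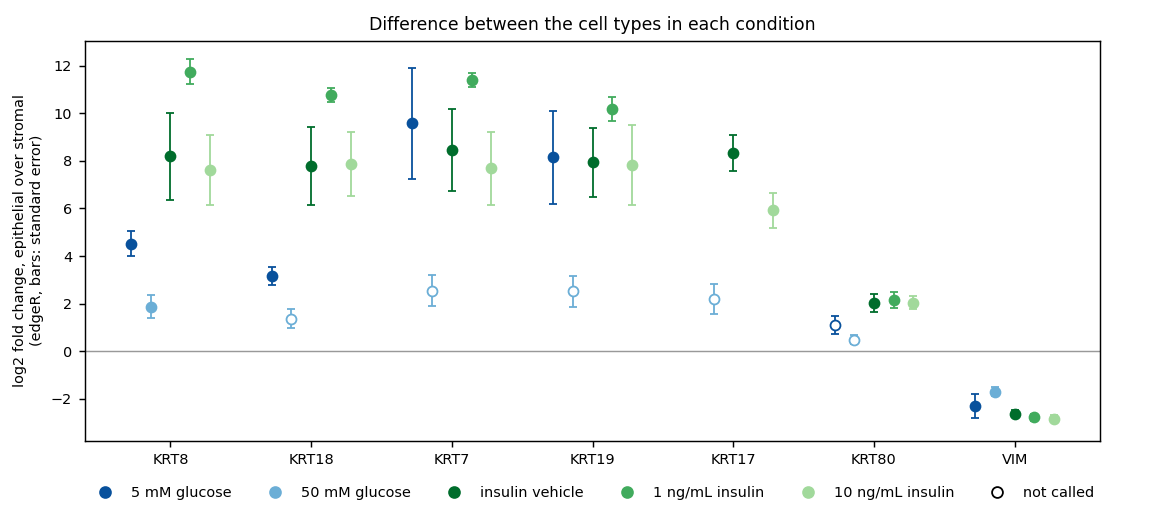
Log2 fold change of epithelial over stromal cells for 7 members in the 5 conditions (edgeR, 3 replicates of each cell type), with bars for the standard error and open symbols for values that were not called. KRT17 is left out at 5 mM glucose and 1 ng/mL insulin, where it had no stromal read. The glucose values of KRT8 and KRT18 (1.37 to 4.52) lie below their insulin values (7.60 to 11.75).

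The other intermediate filament genes measured were mostly on the stromal side. At 5 mM, 3 of the 9 tested were called lower in epithelial cells and 1 higher, with DES at -6.21 (edgeR adjusted p = 0.00577). NES, the nestin gene, had -2.04 (adjusted p = 0.0515), and LMNA, of the nuclear lamina, -0.93 (adjusted p = 0.210). With vehicle, 7 of 10 were called lower and 1 higher, with DES at -5.22 (adjusted p = 0.00382) and LMNA at -1.58 (adjusted p = 0.00156). The median log2 fold change of this list was -0.93 at 5 mM, -0.99 at 50 mM and -1.78, -1.84 and -1.84 over the insulin conditions, where the median of all genes tested was 0.03 at 50 mM and between -0.01 and 0.00 in the others. At 50 mM 4 of 9 were called lower, and at 1 and 10 ng/mL 8 and 6 of 10, with 1 higher in each of these insulin conditions. The shares of all genes called lower were 10.7% (5 mM), 11.0% (50 mM), 27.8% (vehicle), 29.5% (1 ng/mL) and 27.6% (10 ng/mL).

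The proteins that anchor keratin filaments at desmosomes and hemidesmosomes differed in the other direction. Of 13 anchor and linker genes, 5 were called higher in epithelial cells at 5 mM, 3 at 50 mM and 11 in each insulin condition, beside 10.8%, 6.57% and 27.3% to 29.9% of all genes called higher, with 1 called lower with vehicle and at 1 ng/mL. Desmoplakin (DSP) had a log2 fold change of 8.54 at 5 mM (edgeR adjusted p = 0.0206) and 7.24 with vehicle (adjusted p = 0.0113), and the plakophilin PKP1 had 6.58 and 5.84. The most abundant of the list were linkers of other tissues too. PLEC (plectin) had 0.61 at 5 mM (adjusted p = 0.485) and -0.01 with vehicle (adjusted p = 0.946), DST (dystonin) 0.33 and 0.47, and JUP (plakoglobin) 0.96 and 1.63, of which DST and JUP were called with vehicle.

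The genes of the lists that define the cell types followed the labels. Of 15 epithelial markers, 13 were called higher in epithelial cells at 5 mM, 1 at 50 mM and 15 in each insulin condition, with medians of 7.26, 2.20, 6.71, 9.87 and 6.52 on the log2 scale. All 15 stromal markers were called lower in all 5 conditions, with medians from -4.82 to -3.28. Of the 8 smooth muscle markers, 7 were called lower at 5 mM, 8 at 50 mM and 7 in each insulin condition. Over the 5 conditions, 6.57% to 29.9% of all genes were called higher and 10.7% to 29.5% lower in epithelial cells. At 50 mM, KRT8 was called while 14 of 15 epithelial markers were not. All 15 of these markers were nevertheless above 0, each with an unadjusted p under 0.05 (edgeR). Their median of 2.20 was above the value of KRT8, whose adjusted p lay just under the threshold. The calls therefore do not set KRT8 apart from these markers.

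Of the 15 other keratins with a symbol in the tables, 5 reached 1 CPM in at least 3 libraries, namely KRT6A, KRT10, KRT15, KRT73 and KRT78. KRT6A, a keratin of activated and stratified epithelium, was high in the libraries that were high in KRT5. It had 0.865, 25.0 and 0.411 CPM at 5 mM and 1.77, 17.9 and 0.492 CPM at 50 mM in epithelial replicates 1, 2 and 3, and 16.2 to 21.1 CPM in replicate 1 of the insulin experiment against 1.93 to 3.38 CPM in the others. KRT73 had the opposite pattern in the glucose experiment, with 0.222 and 0.0601 CPM in epithelial replicate 2 and 5.96 to 10.2 CPM in replicates 1 and 3. KRT78 was high in epithelial replicate 2 of the insulin experiment, with 15.0 to 18.2 CPM against 1.15 to 3.45 CPM. KRT15 had 0 to 3.97 CPM in epithelial libraries, and KRT10 had 0.0741 to 3.69 CPM over both cell types. Between the cell types, 0 of 1 tested was called at 5 mM, 0 of 4 at 50 mM, and 4, 3 and 3 of 4 in the insulin conditions, all higher in epithelial cells. The shares of all genes called higher were 10.8%, 6.57%, 28.2%, 29.9% and 27.3% in these conditions.

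The treatments were compared within each cell type with the same test. In epithelial cells, 50 mM against 5 mM glucose gave log2 fold changes from -0.59 (KRT5) to 0.07 (VIM), and 0 of 8 members were called by edgeR (lowest adjusted p = 0.804), beside 0 of all 13055 protein-coding genes. None passed at an unadjusted p under 0.05 either, where 1.54% of genes did, and DESeq2 called 0. In replicate 2, KRT7, KRT8, KRT18 and KRT19 were higher at 5 mM (2828, 2985, 1788 and 4418 CPM) than in any other library. KRT5 was lower at 50 mM in 2 of 3 pairs. Without replicate 2, where KRT5 had too few reads to test, the fold changes of KRT7, KRT8, KRT17, KRT18, KRT19 and KRT80 were all above 0, from 0.04 to 0.39. The 15 stromal markers had a median log2 fold change of 0.87 in this comparison, with 0 called and 4 at an unadjusted p under 0.05, while VIM had 0.07 (standard error 0.230).

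In stromal cells, KRT7, KRT8, KRT18, KRT19 and KRT80 were higher at 50 mM than at 5 mM in 3 of 3 pairs, where 23.4% of all genes were, and VIM was lower in 3 of 3 pairs, where 10.1% were. The log2 fold changes were 6.26 for KRT7 (standard error 2.37), 5.59 for KRT19 (1.84), 2.26 for KRT8 (1.09), 1.44 for KRT18 (0.363), 0.60 for KRT80 (0.181) and -0.55 for VIM (0.300). With edgeR, 0 of the 6 members tested were called (adjusted p = 0.696 for each), as were 0 of all genes. At an unadjusted p under 0.05, KRT18 (unadjusted p = 0.0148), KRT80 (unadjusted p = 0.0272) and KRT19 (unadjusted p = 0.0355) passed, that is 3 of 6 where 4.96% of genes passed. DESeq2 called 3 members, KRT7 (adjusted p = 0.00504), KRT19 (adjusted p = 0.00844) and KRT18 (adjusted p = 0.0125), beside 1.33% of genes. KRT5 and KRT17 were not tested, since their reads were too few to pass the filter, with 0 reads in every stromal library at 5 mM.

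The stromal glucose fold changes depended on single replicates. Without replicate 3, whose 50 mM library stood apart, they were 2.98 for KRT7, 3.25 for KRT19, 1.06 for KRT8, 0.96 for KRT18, 0.52 for KRT80 and -0.18 for VIM, and 0 members and 0 of all genes were called. Without replicate 1 they were 9.14, 7.36, 3.01, 1.62, 0.46 and -0.71, and KRT7 and KRT19 were then called (edgeR adjusted p = 0.0271 for each), beside 0.373% of all genes. Every value kept its direction. Beside them, the 15 epithelial markers were all above 0 with a median of 4.42, of which 0 were called and 2 passed at an unadjusted p under 0.05, and the 15 stromal markers were all below 0 with a median of -0.51. Their part in the keratin values was not tested.

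In epithelial cells, insulin left the keratins within narrow limits. At 1 ng/mL against vehicle the log2 fold changes of the 8 members ran from -0.37 (KRT5) to 0.05 (KRT80), 0 were called (edgeR, adjusted p = 1.00; DESeq2 0), as were 0 of all genes, and none had an unadjusted p under 0.05, where 2.87% of genes did. At 10 ng/mL against vehicle, 0 of 8 were called by edgeR and by DESeq2, beside 0.113% of genes with edgeR, and 2 of 8 had an unadjusted p under 0.05, beside 6.78%. VIM was the first of these, with 692, 661 and 647 CPM with vehicle and 611, 629 and 578 CPM at 10 ng/mL. It was lower in 3 of 3 pairs, as 12.4% of genes were, by a log2 fold change of -0.15 (standard error 0.0385, unadjusted p = 5.52e-04, edgeR adjusted p = 0.177). KRT17 was the other, at 0.17 (0.0806, unadjusted p = 0.0413, adjusted p = 0.695) and higher in 3 of 3 pairs, as 14.2% of genes were. Between 10 and 1 ng/mL, 0 of 8 were called by either tool, and VIM alone had an unadjusted p under 0.05 (-0.09, unadjusted p = 0.0377, edgeR adjusted p = 0.983), beside 4.29% of genes.

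In stromal cells of the insulin experiment, the keratins could be tested in few comparisons because of their low reads. At 1 ng/mL against vehicle, KRT19, KRT80 and VIM were tested and 0 were called (edgeR and DESeq2), with 1 of 3, KRT19, at an unadjusted p under 0.05, beside 5.03% of genes. KRT19 had 3.67, 65.5 and 2.17 CPM with vehicle and 2.69, 0.339 and 2.02 CPM at 1 ng/mL. Its log2 fold change of -3.29 (standard error 0.802, edgeR adjusted p = 0.567) rested on vehicle replicate 2. At 10 ng/mL against vehicle, 0 of 6 were called by either tool and none had an unadjusted p under 0.05, beside 2.73% of genes. The standard errors of KRT7, KRT8, KRT18 and KRT19 were 1.78 to 1.94 on the log2 scale there, so that even changes of many-fold could have been missed. VIM had 0.09 (0.0670) at 1 ng/mL and 0.05 (0.0663) at 10 ng/mL.

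At 10 against 1 ng/mL in stromal cells, KRT19 was called, as 1 of 3 members tested, beside 0.0244% of genes. It was also the 1 of 3 members with an unadjusted p under 0.05, beside 3.68% of genes. It had 74.9, 0.175 and 6.82 CPM at 10 ng/mL against 2.69, 0.339 and 2.02 CPM at 1 ng/mL. The log2 fold change was 3.62 (standard error 0.470, edgeR adjusted p = 0.0478), and the level was higher in 2 of 3 pairs. The 74.9 CPM came from replicate 1, in which the epithelial markers summed to 136 CPM at 10 ng/mL and 26.0 CPM at 1 ng/mL, and without replicate 1 no member was called. DESeq2 called 0 members, beside 0.00814% of genes.

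Whether the glucose difference differed between the cell types was tested in the 12 glucose libraries together. With edgeR 0 of 8 members were called, as were 0 of all genes, and 5 of 8 had an unadjusted p under 0.05, beside 7.65% of genes. The difference of the log2 fold changes (epithelial minus stromal) was -6.93 for KRT7 (standard error 2.24, unadjusted p = 0.0160), -5.91 for KRT19 (1.75, unadjusted p = 0.0105) and -1.78 for KRT18 (0.520, unadjusted p = 0.00977), each with an edgeR adjusted p of 0.631. KRT17 and KRT5, which had no stromal read at 5 mM, passed as well, with unadjusted p = 4.94e-04 and 0.00475 (edgeR adjusted p = 0.457 and 0.631). DESeq2 called 4 members, beside 1.78% of genes. Without replicate 3, edgeR called 0 members, and the differences were -4.51 for KRT7 (unadjusted p = 0.0675), -4.31 for KRT19 (unadjusted p = 0.0561) and -1.56 for KRT18 (unadjusted p = 0.0195), each with an edgeR adjusted p of 0.809. For 10 ng/mL insulin against vehicle, 0 of 8 were called by either tool, and VIM (-0.21, standard error 0.0608, unadjusted p = 0.00740) and KRT17 (-2.67, unadjusted p = 0.0483) had an unadjusted p under 0.05 (edgeR adjusted p = 1), beside 4.05% of genes.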

How the data were processed

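The deposited counts per gene were used. The authors sequenced stranded libraries as 75 bp single-end reads, removed adapters (Cutadapt) and poor reads (fastq_quality_filter), used Rsubread for alignment to the bovine genome from Ensembl with unique alignments only, and counted reads with featureCounts. The versions of these tools and the strand setting of the counting are not given in the sources used here. Reads shared by near-identical keratin copies are lost under unique alignment, so levels of keratins with close copies are uncertain. Columns of fold changes and p-values from the authors' own comparisons, in the same files, were not used. Symbols and gene types came from the authors' tables, and 0 columns lacked a sample.

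CPM used the library totals (8826470 to 16647701 reads). Tests used edgeR 4.0.16 (R 4.3.3) with TMM, filterByExpr, the replicate number as a block (the methods state a paired design) and Benjamini-Hochberg adjustment over all genes tested, and shares of genes called are over protein-coding genes. Alternatives were no block, DESeq2 1.42.0, RLE, library totals, no filter, all libraries in one fit, and each replicate left out. The fit was tested on simulated data.

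Same-numbered libraries of a cell type deviated together (correlations 0.206 to 0.751 in 6 of 6 glucose pairs and 0.200 to 0.860 in 18 of 18 insulin pairs). Between cell types this held less (0.0327 to 0.522, over 0.1 in 9 of 12, and 0.0591 to 0.268, over 0.1 in 24 of 27).

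The members, marker lists (epithelial, stromal, smooth muscle, endothelial, immune, other intermediate filaments, anchors) and comparisons were chosen with earlier results of these data known. A further list is not reported here. Named are the 8 members, the most abundant 3 genes of a list where described, other keratins with at least 1 CPM in at least 3 libraries, and the 5 genes most like KRT18 or VIM (mean CPM of at least 5). DSP, PKP1 and MARVELD2 were named outside this rule, PKP1 and MARVELD2 after their values were seen. KRT14, TP63, PTPRC and 8 other listed genes without a symbol row, and ZEB2, which had 2 rows, were not analysed here. RefSeq (ARS-UCD2.0) served only for the order of genes.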

Additional observations from a re-analysis of the deposited data

How the results depend on the processing

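For each comparison, 9 alternatives were run. At 50 mM glucose the count of members called between the cell types (2 as reported) was 1 without the replicate block (beside 7.95% of all genes), 6 with DESeq2 (26.0%), 1 with RLE (17.2%), 5 with library totals (21.2%), 6 without the filter (19.6%), 1 with all libraries in one fit (14.3%) and 0 to 5 with 1 replicate left out (0 without replicate 1, beside 0%, 4 without replicate 2, beside 14.7%, and 5 without replicate 3, beside 28.4%). With 1 replicate left out, the count was 3 to 8 with vehicle (3 without replicate 1, beside 39.2% of all genes), 3 to 8 at 10 ng/mL (3 without replicate 3, beside 37.6%), 7 to 8 at 1 ng/mL (beside 47.4% to 50.4%) and 4 to 6 at 5 mM (beside 16.4% to 24.3%). KRT19 in stromal cells at 10 against 1 ng/mL insulin (1 member called) was lost without the replicate block, with DESeq2, RLE, library totals and all libraries in one fit (0 each, beside at most 0.00814% of all genes), while 4 members were called without the filter (beside 0.899%) and 0 to 4 with 1 replicate left out (4 without replicate 2, beside 0.185%, and 0 without replicate 1, beside 0.357%).

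Where 0 members were reported as called, 1 was called in epithelial cells at 10 ng/mL against vehicle without replicate 2 (0 to 1 over the replicates left out), beside 0.536% of all genes. In stromal cells, 3 were called at 50 against 5 mM with DESeq2 (beside 1.33%) and 2 without replicate 1 (0 to 2, beside 0.373%), 4 at 1 ng/mL against vehicle without the filter (beside 0.863%) and 2 without replicate 3 (0 to 2, beside 0.755%), and 4 at 10 ng/mL against vehicle without replicate 2 (0 to 4, beside 0.604%). The difference between cell types gave 4 with DESeq2 (beside 1.78%) and 3 without replicate 1 (0 to 3, beside 2.18%) for glucose, and 1 without replicate 1 (beside 0.314%) and 5 without replicate 2 (0 to 5, beside 1.24%) for insulin. The block changed no other count by over 1.5 times. The cause of these changes was not tested. The group means and correlations without the stromal library that stood apart were added after seeing the data.

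In epithelial cells, the fold change between glucose concentrations changed sign without replicate 2 for KRT8 (0.18), KRT18 (0.044), KRT19 (0.21), KRT17 (0.20), KRT80 (0.39) and KRT7 (0.075), and for VIM without the replicate block (-0.0058) and without replicate 3 (-0.082). Over the replicates left out, these values ran from -0.41 to 0.18 for KRT8, -0.57 to 0.044 for KRT18, -0.48 to 0.21 for KRT19, -0.57 to 0.20 for KRT17, -0.37 to 0.39 for KRT80, -0.58 to 0.075 for KRT7 and -0.082 to 0.23 for VIM. VIM in epithelial cells as a percentage of the stromal mean moved from 17.0% to 16.4% with vehicle and from 15.0% to 14.2% at 10 ng/mL when libraries were scaled by TMM.

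Percentages of the other cell type and correlations have no test, 3 replicates per group limit every p-value, and a stromal keratin level under about 0.3 CPM is at the limit that a count of 0 allows. Gene lengths were not used, so levels are compared within a gene and not between genes.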

Other observations

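Markers of 2 further cell types were read beside the members. Of 9 endothelial markers, 8 had a row, and their summed level was 26.1 to 109 CPM in the epithelial libraries and 3.87 to 29.1 CPM in the stromal ones. VWF, which encodes von Willebrand factor, was higher in epithelial cells at 5 mM (log2 fold change 2.76, edgeR adjusted p = 0.0207), at 50 mM (1.16, adjusted p = 0.0478) and with vehicle (3.38, adjusted p = 0.00158). EMCN, which encodes endomucin, had 0.440 to 13.6 CPM over all glucose libraries and 11.1 to 83.7 CPM in the epithelial insulin libraries. TEK went the other way. It had 0.137 to 0.632 CPM in the epithelial and 1.02 to 2.14 CPM in the stromal glucose libraries. In the insulin experiment its median was 0.334 CPM in epithelial and 1.29 CPM in stromal libraries. Of the endothelial markers tested, 1 of 3 was called higher in epithelial cells at 5 mM, 1 of 4 at 50 mM, and 2 of 2, 2 of 3 and 2 of 3 in the insulin conditions, with 1 called lower at 10 ng/mL. Beside them, 10.8%, 6.57%, 28.2%, 29.9% and 27.3% of all genes were called higher in these conditions, and 27.6% lower at 10 ng/mL.

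Of 9 immune markers, 4 had a row, with a summed level of 2.34 to 12.8 CPM in the epithelial and 4.02 to 19.3 CPM in the stromal libraries. CD163, a scavenger receptor gene of macrophages, was lower in epithelial than in stromal cells at 5 mM (-3.00, edgeR adjusted p = 0.0211), 50 mM (-2.80, adjusted p = 0.0409) and with vehicle (-4.58, adjusted p = 0.00425). The levels of CD14 and CD68 did not separate the cell types in this way. In the insulin experiment CD14 had a median of 2.78 CPM in epithelial and 1.59 CPM in stromal libraries. CD68 had medians of 1.68 CPM and 1.73 CPM there. The ranges of the cell types overlapped for both genes in both experiments. In all, 1 of 3, 1 of 3, 2 of 4, 1 of 3 and 1 of 3 immune markers tested were called lower in epithelial cells over the 5 conditions, and none was called higher. The shares of all genes called lower were 10.7%, 11.0%, 27.8%, 29.5% and 27.6%, so counts of so few markers do not set them apart.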
